A study of Mus musculus with 8 samples.

Results

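ATP-binding cassette (ABC) transporter genes were followed in 8 RNA sequencing libraries of mouse kidney cells. Every row of the deposited gene table whose symbol begins with Abc, a letter from a to g and a number was taken, which gave 50 of 22274 genes, all of them protein-coding. In one group, 4 libraries came from cells given TGF-β, a cytokine that drives matrix production, together with chaetocin, a fungal metabolite used to inhibit SUV39 histone methyltransferases. The 4 libraries of the other came from cells given TGF-β alone, so both groups carry TGF-β. The cells are labelled as a fibroblast line named RFB from kidney. Neither dose nor time is stated in the labels. Nothing says whether libraries came from separate cultures, and the p-values therefore speak of the spread among libraries, part of which may be technical. Knockdown derivatives for SUV39H1 appear in the design text of the series but in no label used here. The comparison asks which transcripts differ when an inhibitor of that enzyme is added to cells under TGF-β.

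ABC proteins couple the hydrolysis of ATP in paired cytosolic domains to movement of a substrate through membrane-spanning domains. Many members of the A and G subfamilies move sterols and phospholipids, members of the B and C subfamilies export drugs, conjugates and bile salts or serve mitochondria and lysosomes, and most members of the D subfamily serve peroxisomes. Members of the E and F subfamilies have no membrane-spanning part and act on ribosomes. In kidney, proximal tubule cells use several of the exporters to move drugs and organic anions into urine. The 50 genes comprised 16 of subfamily A, 10 of B, 10 of C, 4 of D, 1 of E, 3 of F and 6 of G.

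Total counts were 14421225 to 22591935 with chaetocin and 20135312 to 23664084 with TGF-β alone, and the deepest chaetocin library was replicate 1. Markers of the labelled cell type were mixed. CPM are counts relative to library size, here after TMM, a scaling of library sizes by edgeR. The summed level of 10 fibroblast markers, 9 of them tested with 1 higher and 5 lower, was 527.2 to 669.3 CPM with chaetocin and 1450 to 1543 CPM with TGF-β alone. Vim averaged 442.1 CPM with chaetocin and 1163 CPM with TGF-β alone, and Col1a1 58.1 CPM with chaetocin and 232.9 CPM with TGF-β alone. Dcn averaged 2.28 CPM with chaetocin and 0.129 CPM with TGF-β alone, and Lum 0.279 CPM with chaetocin and 0.0123 CPM with TGF-β alone. Tubule epithelium markers were abundant too, 12 of them summing to 7371 to 7666 CPM with chaetocin and 4746 to 4908 CPM with TGF-β alone, with Aqp2 at 0 counts under TGF-β alone. Krt8 and Krt18 carry that difference, with means of 3615 and 1783 CPM with chaetocin and 1582 and 812.4 CPM with TGF-β alone. Of 10 tested tubule markers 5 were called higher and 4 lower, where 42% and 38.8% of all tested genes were. Besides Krt8 and Krt18, Cubn, Epcam and Cdh16 were called higher, Cubn with 62.4 CPM with chaetocin and 8.07 CPM with TGF-β alone. Cldn4, Lrp2, Pax8 and Cdh1 were called lower, Cdh1 with 617.6 CPM with chaetocin and 650.5 CPM with TGF-β alone. Both kinds of marker were thus present, and the cells are called RFB cells.

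With chaetocin, the sterol exporter genes Abca1 and Abcg1 were lower, with log2 fold changes of -2.26 and -1.72, the multidrug exporter genes Abcb1a, Abcb1b, Abcg2, Abcc1 and Abcc2 were higher, and 13 members below 1 CPM under TGF-β alone passed the filter on low counts only through the chaetocin libraries. The most abundant members per gene length, Abce1, Abcf1, Abcc4 and Abcf2, had log2 fold changes between -0.25 and 0.00. In mean CPM over all libraries, Abcc1 at 158 and Abca3 at 152 exceeded Abcf1 at 138 and Abcf2 at 107. Abcc1 and Abca3 had log2 fold changes of 0.47 and -0.16. The summed level of the 50 genes was 1675 to 1706 CPM with chaetocin and 1663 to 1695 CPM with TGF-β alone, ranges that overlap. In FPKM, the authors' counts scaled for gene length and library size, the sum was 408.8 to 413.4 with chaetocin and 371.4 to 376.1 with TGF-β alone, with no overlap. The TMM factors, by which library sizes are multiplied before CPM are taken, were 1.0371 to 1.0435 with chaetocin and 0.9566 to 0.9638 with TGF-β alone. Their part in the difference between the 2 measures was not tested. At least 1 count was found for 48 to 50 of the 50 genes per library with chaetocin and for 40 or 41 with TGF-β alone. The whole table moved the same way, with 17925 to 18454 of 22274 genes found per library with chaetocin and 15581 to 15834 with TGF-β alone.

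Enough counts for a test were found in 44 of the 50 genes. By the quasi-likelihood test of edgeR with Benjamini-Hochberg adjustment, 24 of them were higher with chaetocin and 12 lower at an adjusted p under 0.05. Over all 14608 tested genes the corresponding shares were 42% higher and 38.8% lower, 80.7% in all. A fold of at least 2 was reached by 18 members that were higher and 3 that were lower, where 19.7% and 4.88% of all tested genes were. The groups did not overlap in 34 of 44 members, or 77.3%, beside 74.7% of all tested genes. Under total-count scaling 27 members were higher and 6 lower, so 81.8% of member calls were rises there, beside 66.7% with TMM scaling. That scaling moved the median log2 fold change of all genes to 0.14, beside 0.02 with TMM, and the 6 falls that it no longer called, among them those of Abca2, Abca3, Abcd3, Abce1 and Abcf1, had log2 fold changes of -0.18 to -0.08 under TMM. Abca5, Abcc3 and Abcc4 were called higher under that scaling and not under TMM.

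The 13 members that passed the filter only through the chaetocin libraries were tested because of their counts there, which favours rises, so they are described apart. The other 31 had enough counts in the TGF-β libraries and were also the members of at least 1 CPM there. Of these, 11 or 35.5% rose, 12 or 38.7% fell and 8 were not called. Among the 12448 tested genes of at least 1 CPM with TGF-β alone, 34.2% rose and 45.3% fell, so the family's shares lie near those of genes of its level. With a fold of at least 2, 5 members or 16.1% were higher and 3 or 9.68% lower, beside 8.87% and 5.62% of those genes. Of the 31, 30 also passed the filter on the chaetocin libraries alone. The exception was Abcg3, 1 of the 3 that were lower, whose passing only through the TGF-β libraries favours a fall. The median log2 fold change of the 31 members was 0.05, and that of all genes of that level was -0.08.

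**Figure D1:**
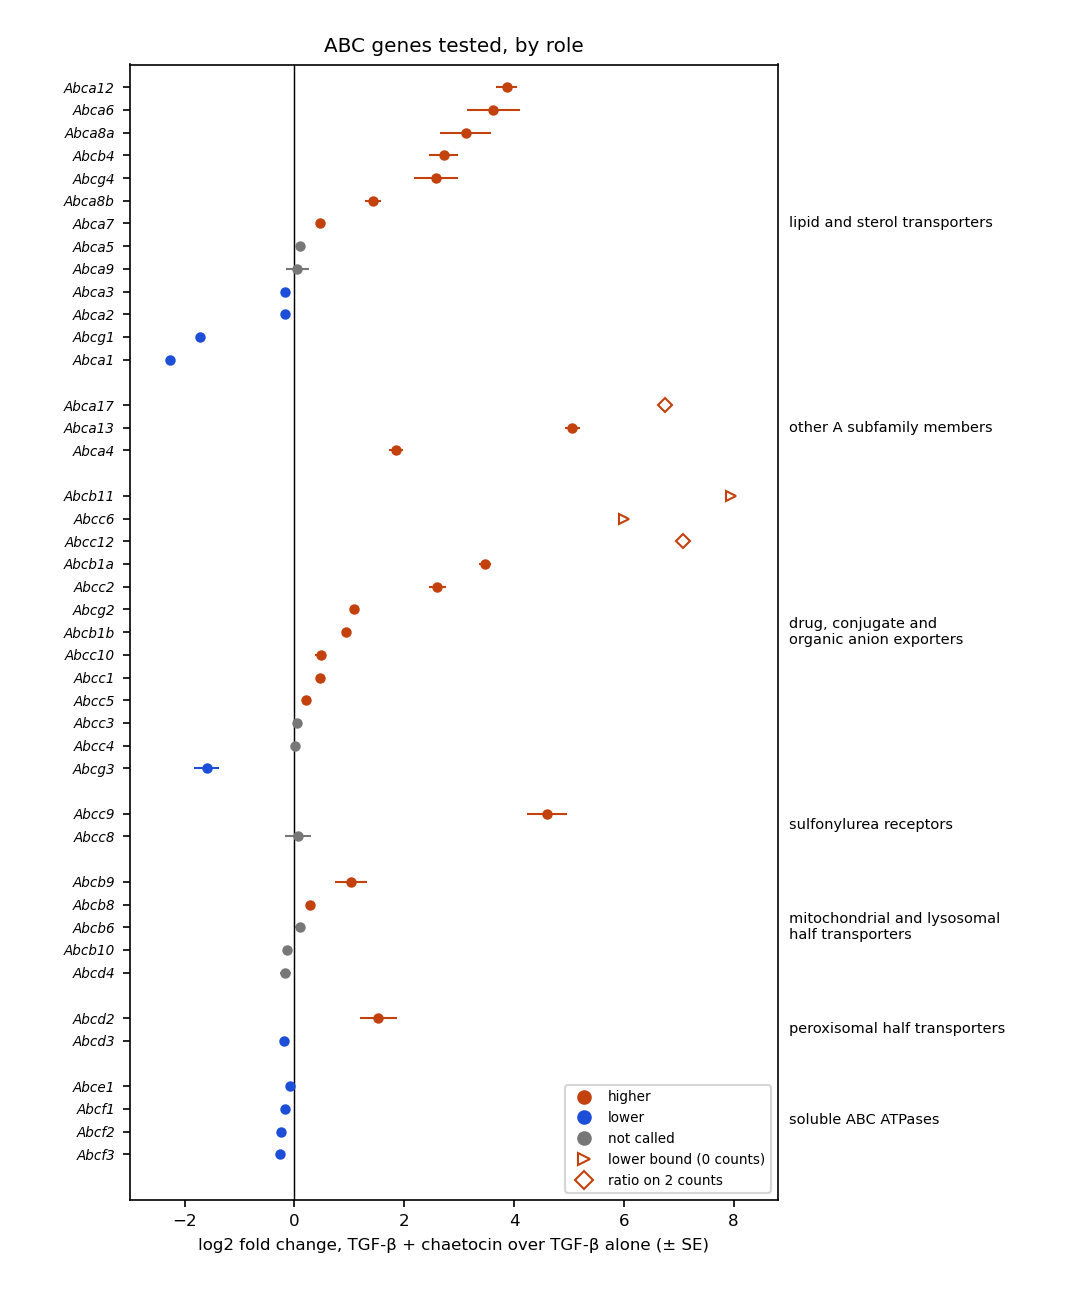
Log2 fold change of the tested ABC genes reported by name, chaetocin with TGF-β over TGF-β alone, in rows grouped by role. Points with bars are edgeR estimates ± SE, open triangles are lower bounds for genes with 0 counts in the TGF-β libraries, and open diamonds are ratios resting on 2 counts. Abca1 at -2.26 is the lowest point, and the 4 soluble ATPase genes at the bottom lie between -0.26 and -0.08.

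Of 13 tested sterol and phospholipid transporters 7 rose and 4 fell, near the 42% and 38.8% of all tested genes, and 5 of the 7 rises were in genes that passed the filter only through the chaetocin libraries. Abca1, which loads cellular cholesterol onto apolipoprotein A-I, had 17.8, 17.8, 19.4 and 18.5 CPM in the 4 chaetocin libraries, against 88.3, 84.1, 86.9 and 91.7 CPM with TGF-β alone. The chaetocin libraries lay far below the others, with a narrow range in both groups. Its log2 fold change was -2.26 ± 0.05 (SE; edgeR adjusted p = 2.1e-25), the deepest fall of the family, and it ranged from -2.30 to -1.69 over all alternatives. Abcg1, which passes cholesterol to high-density lipoprotein, had 13.8, 14.9, 15.2 and 16.7 CPM with chaetocin, against 48.1, 52.1, 48.4 and 49.5 CPM with TGF-β alone. Again no library of one group reached the other group. The log2 fold change of Abcg1 was -1.72 ± 0.06 (SE; edgeR adjusted p = 1.4e-20).

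Abca1 and Abcg1 are known for high expression in macrophages, whose markers were present and moved as well. Of 10 macrophage markers, all tested, 7 were lower and 3 higher with chaetocin, beside 80.7% of all tested genes called. Their summed level was 203.2 to 243.7 CPM with chaetocin and 358.1 to 394.1 CPM with TGF-β alone, and none of the 10 was at 0. Among them, chosen after their values were seen, Cx3cr1 and C1qc had log2 fold changes of -2.09 and -1.77, while Cd68 and Ptprc, the pan-leukocyte antigen, rose by 0.94 and 0.29. Fewer cells of a type and less RNA per cell cannot be told apart in bulk libraries, and the part of these cells in the falls of Abca1 and Abcg1 was not tested.

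Abca7, a phospholipid transporter studied for its part in phagocytosis, rose by 0.46 on the log2 scale. Abca3, the phospholipid transporter of lung surfactant, had a log2 fold change of -0.16 with TMM scaling and of -0.05 with total-count scaling, where it was not called (edgeR adjusted p = 0.115). Among the members of at least 1 CPM with TGF-β alone, Abca8b had 6.15, 5.11, 6.67 and 5.55 CPM with chaetocin, against 2.48, 1.80, 2.17 and 2.24 CPM with TGF-β alone. Its groups did not overlap (log2 fold change 1.43 ± 0.15 SE; edgeR adjusted p = 1.3e-09). Abca4, the retinoid transporter of photoreceptors, had 11.96, 10.4, 13.2 and 12.7 CPM with chaetocin, against 4.55, 2.83, 3.16 and 2.77 CPM with TGF-β alone. All 4 chaetocin libraries lay above all others (log2 fold change 1.85 ± 0.13 SE; edgeR adjusted p = 4.5e-13).

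The list of sterol handling genes and targets of the liver X receptors, nuclear receptors for oxysterols that switch on Abca1 and Abcg1, had 3 higher, 8 lower and 3 not called among 14 tested, with a median log2 fold change of -0.29. Over all tested genes 42% were higher and 38.8% lower, 80.7% in all, with a median of 0.02. Apoe, a lipoprotein component and receptor target, fell by 1.62 on the log2 scale and the lysosomal cholesterol exporter gene Npc1 fell by 0.60. Scd1, a fatty acid desaturase gene and also a receptor target, rose by 2.004. Among 16 tested transcription factors known to act on ABC genes 6 were higher and 7 lower, beside the same shares, with a median of -0.04. The receptor gene Nr1h2 was at 54.1 CPM in both groups (means of 4 libraries each), with an edgeR log2 fold change of 0.00 ± 0.05 (SE) and an adjusted p of 0.987. Its relative Nr1h3, chosen like Nr1h2 after the values were seen, averaged 1.47 CPM with chaetocin and 0.472 CPM with TGF-β alone (log2 fold change 1.61; edgeR adjusted p = 5.8e-05). The called factors with the smallest p among those that were lower were Hif1a and Nfe2l2, which fell by 0.69 and 0.32 on the log2 scale.

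**Figure D2:**
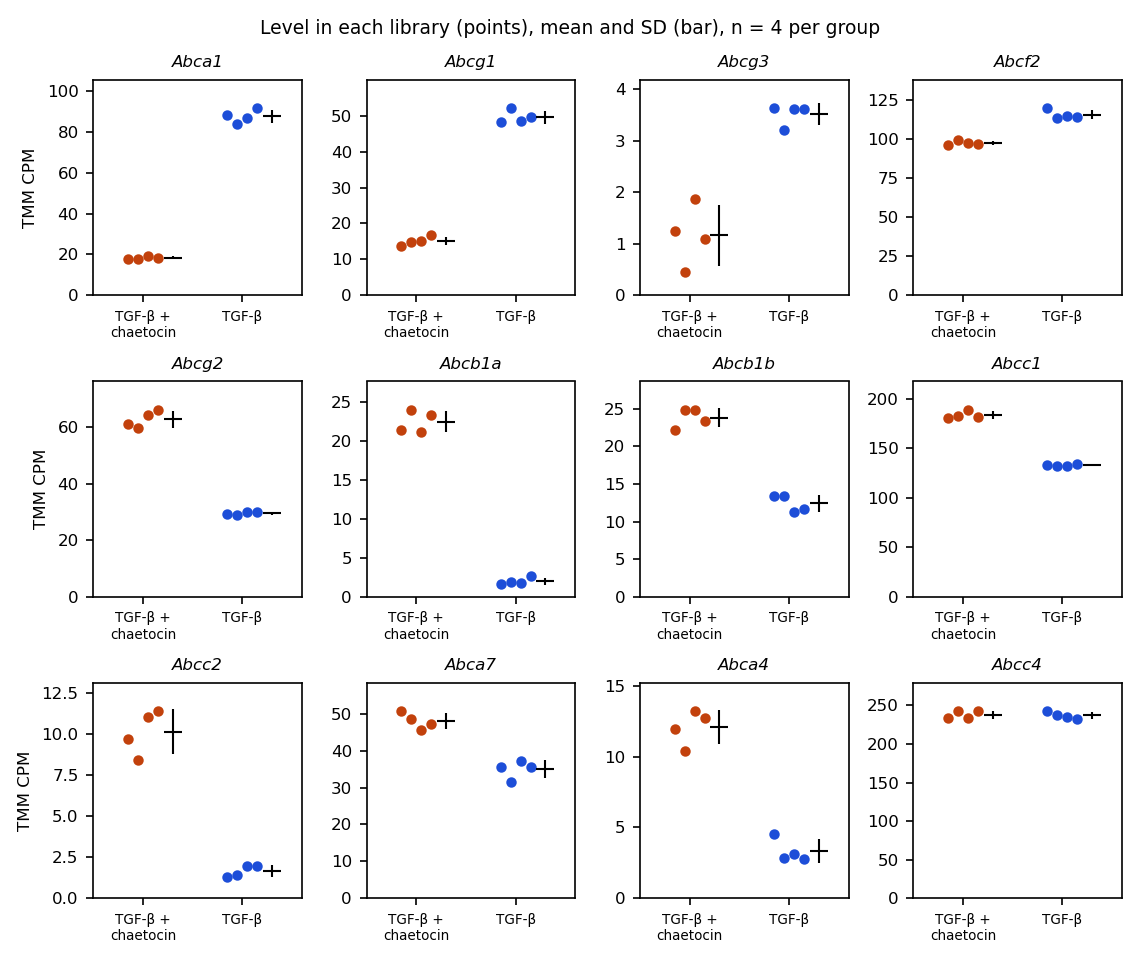
TMM CPM of 12 ABC genes in each library (points, chaetocin with TGF-β left of TGF-β alone), with the mean and SD of the 4 libraries of a group as a bar. Each axis starts at 0. Abca1, Abcg1, Abcg3 and Abcf2 are lower with chaetocin, the next 7 are higher, and the 2 groups of Abcc4 overlap.

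Of 13 tested exporters of drugs, conjugates and organic anions 10 were called higher, 1 was lower and 2 were not called, where 42% of all tested genes were higher and 38.8% lower. The 10 include 3 that passed the filter only through the chaetocin libraries. Of the other 10 exporters, all of at least 1 CPM with TGF-β alone, 7 were higher, where 34.2% of tested genes of that level were. Several are known from tubule epithelium, of whose 10 tested markers 5 were higher and 4 lower, and the part of those markers' changes in the exporters was not tested. Abcb1a, a mouse P-glycoprotein gene, had 21.4, 24.0, 21.2 and 23.3 CPM with chaetocin, against 1.61, 1.91, 1.83 and 2.68 CPM with TGF-β alone. The lowest chaetocin library was far above the highest of the others (log2 fold change 3.47 ± 0.11 SE; edgeR adjusted p = 8.2e-21). Abcb1b, the other P-glycoprotein gene, averaged 23.8 ± 1.29 CPM with chaetocin and 12.4 ± 1.13 CPM with TGF-β alone (SD over 4 libraries a group). Its edgeR estimate was 0.93 ± 0.07 (log2 ± SE), at an adjusted p of 1.8e-12. Both are near copies of one another, so the authors' counting could have split their reads. Per length, Abcb1a and Abcb1b had mean FPKM of 4.68 and 7.52 with chaetocin and 0.388 and 3.56 with TGF-β alone, so Abcb1b was the higher of the pair in both groups.

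Abcg2, the breast cancer resistance protein, which exports urate and many drugs, had 61.1, 59.8, 64.4 and 66.3 CPM with chaetocin, against 29.2, 28.9, 29.9 and 30.2 CPM with TGF-β alone. The groups were wide apart (log2 fold change 1.09 ± 0.04 SE; edgeR adjusted p = 2.0e-18). Its rodent relative Abcg3, whose substrate is not settled, went the other way and had 1.24, 0.447, 1.87 and 1.08 CPM with chaetocin, against 3.63, 3.20, 3.61 and 3.61 CPM with TGF-β alone. These rest on 7 to 29 counts per chaetocin library and 62 to 82 per library with TGF-β alone (log2 fold change -1.59 ± 0.23 SE; edgeR adjusted p = 4.3e-07). Abcg3 passed the filter only through the TGF-β libraries, where it was high, which favours a fall. Abcc2, which exports conjugates across the apical membrane of liver and proximal tubule cells, had 9.74, 8.44, 11.1 and 11.4 CPM with chaetocin, against 1.29, 1.39, 1.98 and 1.98 CPM with TGF-β alone. Every chaetocin library exceeded every other library (log2 fold change 2.60 ± 0.15 SE; edgeR adjusted p = 6.0e-15). Abcc1, an exporter of glutathione conjugates, averaged 184 ± 3.76 CPM with chaetocin and 133 ± 1.12 CPM with TGF-β alone (SD over 4 libraries a group). Its edgeR estimate was 0.47 ± 0.03 (log2 ± SE), at an adjusted p of 3.7e-15. Abcc1 lost its call when tested against a fold of 1.5.

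Abcc4, an exporter of cyclic nucleotides and urate, was the most abundant exporter per length in both groups and had 233, 242, 234 and 242 CPM with chaetocin, against 243, 238, 236 and 232 CPM with TGF-β alone. The libraries of the 2 groups were intermingled, with a log2 fold change of 0.00 ± 0.03 (SE; edgeR adjusted p = 0.897) and a 95% interval of -0.05 to 0.05. With total-count scaling it was called higher, at a log2 fold change of 0.12 (edgeR adjusted p = 1.1e-04). In the authors' FPKM its groups did not overlap. Abcc3, chosen after its values were seen, was the other exporter not called, at 0.05 with an interval of -0.09 to 0.19, and was called at 0.16 with total-count scaling (edgeR adjusted p = 0.0354).

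Genes that supply glutathione and its conjugates, which Abcc1 and Abcc2 carry, were higher in 7 of 8 tested cases and lower in 0, where 42% of all tested genes were higher, with a median log2 fold change of 1.19 beside 0.02 over all tested genes. Slc7a11, the cystine importer, rose by 2.20, Gclm, a subunit of the enzyme that starts glutathione synthesis, by 1.45 and the glutathione transferase gene Gstm1 by 1.28. Gsr, which encodes glutathione reductase and was the one gene of the list not called, was at 0.02 (edgeR adjusted p = 0.521).

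Of the sulfonylurea receptors, regulatory subunits of potassium channels that close with ATP, Abcc9 had 2.35, 1.79, 3.20 and 2.55 CPM with chaetocin, against 0.184, 0.0515, 0.0494 and 0.0880 CPM with TGF-β alone. It was near the limit of counting without chaetocin (log2 fold change 4.60 ± 0.37 SE; edgeR adjusted p = 6.3e-12). Abcc9 passed the filter only through the chaetocin libraries, so it had to be higher to be tested. Abcc8 averaged 1.601 ± 0.479 CPM with chaetocin and 1.52 ± 0.410 CPM with TGF-β alone (SD, n = 4 per group) and was not called, with an interval of -0.40 to 0.54 on the log2 scale. Of the pore genes of these channels, Kcnj11 fell by 1.76 on the log2 scale, to 0.338 CPM with chaetocin against 1.18 CPM with TGF-β alone, and Kcnj8 had too few counts to test. The Kcnj11 values rest on 3 to 9 counts per chaetocin library and 21 to 29 per library with TGF-β alone. In the authors' FPKM Kcnj11 averaged 0.23 ± 0.275 with chaetocin and 0.50 ± 0.258 with TGF-β alone (SD, n = 4 per group).

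ABC proteins that carry other symbols stand outside the 50, and all 3 on the list were higher, where 42% of all tested genes were. Cftr, the chloride channel of epithelia, averaged 61.9 CPM with chaetocin and 7.74 CPM with TGF-β alone (log2 fold change 2.995 ± 0.06 SE; edgeR adjusted p = 1.5e-25). Tap1 and Tap2, the peptide transporters of antigen presentation, rose by 1.88 and 0.76 on the log2 scale.

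Of 6 tested members of mitochondria and lysosomes 2 rose, 1 fell and 3 were not called, with log2 fold changes of -0.16 to 1.03 and a median of -0.01. Over all tested genes 42% rose and 38.8% fell. Abcb8, a mitochondrial member, rose by 0.28 on the log2 scale. Abcb9, a lysosomal peptide transporter named after its values were seen, had 6 to 18 counts per library with TGF-β alone and was higher by 1.03. It passed the filter only through the chaetocin libraries, which favours a rise.

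Of the 3 tested members of peroxisomes 1 rose and 2 fell, with a median log2 fold change of -0.18. Over all tested genes 42% rose and 38.8% fell. Abcd3, which imports branched-chain fatty acids and bile acid precursors and was the most abundant of them, had a log2 fold change of -0.18, and of -0.07 with total-count scaling, where it was not called (edgeR adjusted p = 0.104). Abcd2, the member that rose, was below 1 CPM in both groups. It passed the filter only through the chaetocin libraries, so it had to be higher to be tested. Among 8 tested genes of peroxisomal membrane protein import and fatty acid oxidation 2 rose and 4 fell, beside the same shares, with a median of -0.11. Pex19, the carrier that brings such transporters to the peroxisome, fell by 0.78 on the log2 scale, and Acaa1a, a peroxisomal thiolase gene, rose by 0.69.

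The soluble members recycle ribosomes or act in translation. Of these Abce1, Abcf1 and Abcf2 were, with Abcc4, the 4 members of highest mean FPKM, while Abcf3 had a mean of 12.7 FPKM with chaetocin and 15.2 FPKM with TGF-β alone. Per length, Abce1, the ribosome recycling factor, had 61.1, 58.0, 61.8 and 59.7 FPKM with chaetocin, against 59.4, 59.6, 56.9 and 59.1 FPKM with TGF-β alone. Abcf1 had 44.3, 41.2, 41.6 and 45.7 FPKM with chaetocin, against 44.4, 45.8, 44.0 and 45.0 FPKM with TGF-β alone. Abcf2 had 38.9, 40.4, 39.5 and 39.1 FPKM with chaetocin, against 44.6, 42.7, 43.1 and 42.7 FPKM with TGF-β alone. In these FPKM the groups of Abce1 and Abcf1 overlapped and those of Abcf2 did not. Abcc4 had 42.4, 44.2, 42.5 and 44.1 FPKM with chaetocin, against 40.6, 40.2, 39.8 and 39.1 FPKM with TGF-β alone, with every chaetocin library above every other, unlike on the TMM scale. The 5 members with the highest mean FPKM, which include Abcg2, held 53.5% of the family's summed FPKM with chaetocin and 54.1% with TGF-β alone.

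All 4 soluble members were called lower on the TMM scale, with log2 fold changes of -0.26 to -0.08. Of all tested genes of at least 1 CPM with TGF-β alone 45.3% were called lower, and the median log2 fold change of those genes was -0.08. With total-count scaling Abce1 was at 0.035 (edgeR adjusted p = 0.216) and Abcf1 at -0.06 (edgeR adjusted p = 0.0536), neither called, while Abcf2 and Abcf3 stayed lower at -0.13 and -0.14. The direction of Abce1 thus depends on the scaling.

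**Figure D3:**
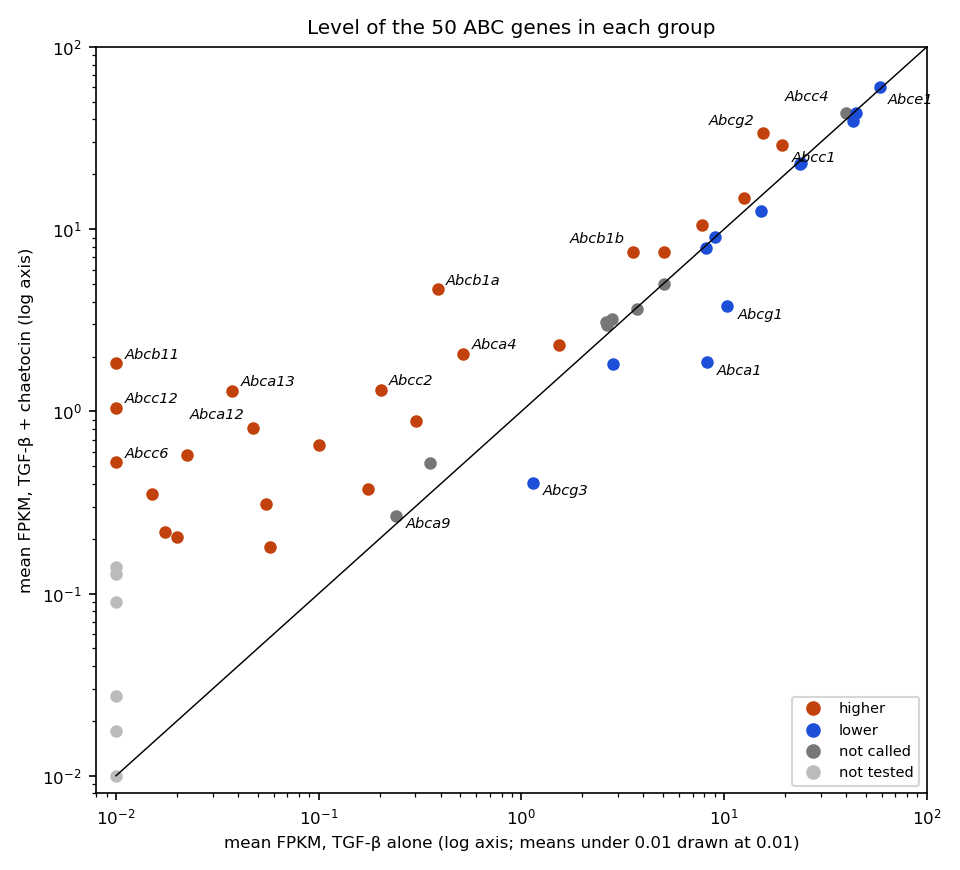
Mean FPKM of the 50 ABC genes with chaetocin (vertical, log axis) and with TGF-β alone (horizontal, log axis), means under 0.01 drawn at 0.01. Points on the line are equal in both groups. Abundant genes such as Abce1 lie near the line, Abca1, Abcg1 and Abcg3 lie below it, and most genes under 0.2 FPKM with TGF-β alone lie above it.

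The 13 members that passed the filter only through the chaetocin libraries averaged 0.875 to 20.02 CPM there and at most 0.635 CPM with TGF-β alone. Among all 2160 tested genes under 1 CPM with TGF-β alone 86.9% were called higher, and a gene of that level could hardly be tested unless it rose. Abca13, a very large member, had 21.4, 20.6, 17.7 and 20.3 CPM with chaetocin, against 0.643, 0.773, 0.346 and 0.616 CPM with TGF-β alone (log2 fold change 5.06 ± 0.14 SE; edgeR adjusted p = 4.4e-22). Abca12, which fills the lipid granules of the epidermis, had 7.605, 6.26, 7.34 and 7.46 CPM with chaetocin, against 0.505, 0.412, 0.395 and 0.616 CPM with TGF-β alone (log2 fold change 3.87 ± 0.19 SE). Abcb4, which moves phosphatidylcholine into bile, had 2.35, 2.88, 2.53 and 2.42 CPM with chaetocin, against 0.505, 0.258, 0.445 and 0.308 CPM with TGF-β alone. In these 3 genes every chaetocin library was several times above every other library.

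Abcb11, the bile salt export pump of hepatocytes, had 222, 124, 124 and 144 counts in the chaetocin libraries and 0 in each library with TGF-β alone. It was at least 247-fold higher with chaetocin, against a floor of 3 counts over the TGF-β group. Abcc6, a member of liver and kidney whose loss causes ectopic calcification, had 44, 41, 37 and 37 counts with chaetocin and 0 in each other library, at least 64-fold higher. Abcc12 had 62, 49, 65 and 47 counts with chaetocin and 2 over the TGF-β group, which is 135 times as much, within 36.8 and 1120 (95% counting interval). Abca17 had 60, 31, 46 and 42 counts with chaetocin and 2 over the TGF-β group, which is 108 times as much, within 29.5 and 899. These floors and intervals cover counting error only. Per length these members stayed low, since the highest of the 13, Abcb11, averaged 1.85 FPKM with chaetocin.

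The 6 untested members were also rare with chaetocin. Abca14 and Abcb5, with 46 and 35 counts over the chaetocin libraries and 0 over the others, were at least 18.5-fold and 14.1-fold higher over those libraries. Abca16, Abca15 and Abcg5 had 11, 7 and 14 counts with chaetocin and 0 without. Abcg8, the partner of Abcg5 in sterol excretion, had 2 counts with chaetocin and 1 with TGF-β alone, so no difference was detectable at this depth.

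Genes of the family that lie side by side were not always called alike. Of those named here, Abca17, Abca8a, Abca6, Abcc6 and Abcb4 passed the filter only through the chaetocin libraries. These had to be higher to be tested, so their rises beside better-expressed neighbours do not show how neighbours move in general. All positions are those of GENCODE M21 on GRCm38, and neighbours named here were chosen after their values were seen. Abca17 (chromosome 17, 24264259 to 24351068, minus strand) and Abca3 (chromosome 17, 24351950 to 24410201, plus strand) lie head to head with 881 bases between them, and Abca17 was higher by the ratio of 108 while Abca3 had a log2 fold change of -0.16. In the row on chromosome 11, Abca9 (110100749 to 110168196, minus strand) had a log2 fold change of 0.05 (edgeR adjusted p = 0.819), while its neighbours Abca8a, 4770 bases away, and Abca6, 8623 bases away, rose by 3.12 and 3.62, to 0.9499 and 1.09 CPM with chaetocin against 0.105 and 0.0860 CPM with TGF-β alone. Abca5, at the other end of that row, was not called at 0.10, though it was with total-count scaling at 0.21 (edgeR adjusted p = 0.00623). Abcc6 and Abcc8, 74220 bases apart on chromosome 7, differed likewise, since Abcc6 was at least 64-fold higher and Abcc8 was not called. On chromosome 5 Abcb1a (8660077 to 8748575), Abcb1b (8798147 to 8866315) and Abcb4 (8893717 to 8959231), all on the plus strand, were all higher.

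Exons of 11 of the 50 genes overlap a gene on the opposite strand, and without strand in the counting their reads cannot be told apart. The overlap covers 10.1% of the exon bases of Abcb1a, 9.75% of those of Abca3, 3.01% of those of Abcb11 and 1.79% of those of Abcb1b. Abca1 lies on chromosome 4 (53030787 to 53159895, minus strand), Abcg1 on chromosome 17 (31057675 to 31117988, plus strand) and Abcg2 on chromosome 6 (58584523 to 58695676, plus strand), and none of these 3 overlaps another gene's exons.

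Promoter windows of 300 bases, from 250 before to 50 after the start, were taken from RefSeq on GRCm38.p6 and matched 38 of the 50 genes by symbol. In 36 of them the window lay within 1000 bases of the GENCODE start. CpG dinucleotides, which are dense in promoters of widely active genes, numbered 4 to 23 with a median of 11.5 in the 14 members under 1 CPM with TGF-β alone, and 1 to 45 with a median of 20.5 in the 22 members of at least 1 CPM. Over all tested genes the medians were 7 in genes under 1 CPM and 21 in the others, the same order as in the family. The sets are not chosen alike, since members have the window nearest the GENCODE start. Other genes have their first window by position, with no limit on distance. The members under 1 CPM also include the untested Abca14, Abca15, Abca16, Abcb5, Abcg5 and Abcg8. Among the members of at least 1 CPM, Abcg2, Abca9 and Abcc2 had the fewest, with 3, 2 and 1 CpG at 29.5, 1.599 and 1.66 CPM with TGF-β alone.

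The windows of 4 genes are shown because they span these cases, written 5′ to 3′ on the gene's strand with each CpG in capitals. Abca1 (chr4:53159846-53160145, minus strand, 26 CpG) fell, Abcc4 (chr14:118706170-118706469, minus strand, 41 CpG) was abundant and not called, Abcb11 (chr2:69342567-69342866, minus strand, 4 CpG) had 0 counts without chaetocin, and Abca17 (chr17:24351010-24351309, minus strand, 21 CpG) had 2 counts without it.
Abca1: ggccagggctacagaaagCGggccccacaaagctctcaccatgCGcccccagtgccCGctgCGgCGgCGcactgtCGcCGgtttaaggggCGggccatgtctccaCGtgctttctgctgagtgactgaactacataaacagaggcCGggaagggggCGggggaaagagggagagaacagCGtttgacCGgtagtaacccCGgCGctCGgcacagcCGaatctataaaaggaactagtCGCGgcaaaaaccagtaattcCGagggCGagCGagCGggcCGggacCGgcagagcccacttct
Abcc4: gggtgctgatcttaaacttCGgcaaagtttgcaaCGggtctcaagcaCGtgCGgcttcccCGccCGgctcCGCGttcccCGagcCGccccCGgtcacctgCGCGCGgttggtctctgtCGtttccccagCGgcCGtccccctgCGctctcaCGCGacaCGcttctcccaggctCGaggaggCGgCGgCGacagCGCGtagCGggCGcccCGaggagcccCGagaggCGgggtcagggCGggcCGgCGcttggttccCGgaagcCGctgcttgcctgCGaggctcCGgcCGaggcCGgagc
Abcb11: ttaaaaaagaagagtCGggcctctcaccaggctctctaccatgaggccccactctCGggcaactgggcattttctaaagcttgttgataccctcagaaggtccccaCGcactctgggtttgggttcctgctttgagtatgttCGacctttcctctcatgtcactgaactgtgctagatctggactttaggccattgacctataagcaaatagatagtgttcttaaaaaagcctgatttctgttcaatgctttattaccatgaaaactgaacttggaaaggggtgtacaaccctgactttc
Abca17: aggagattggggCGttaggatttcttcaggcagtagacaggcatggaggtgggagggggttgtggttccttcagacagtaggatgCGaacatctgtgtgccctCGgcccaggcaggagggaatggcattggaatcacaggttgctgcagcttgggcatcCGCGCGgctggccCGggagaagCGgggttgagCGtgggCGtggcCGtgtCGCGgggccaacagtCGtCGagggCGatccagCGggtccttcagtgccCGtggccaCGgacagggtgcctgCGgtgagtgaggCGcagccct

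Short motifs were searched on both strands of the 36 windows. Shares are given beside those over the windows of 27025 genes and over the 11454 tested genes with a window. Those windows are the first by position of each gene, not the nearest to the GENCODE start. The GC box GGGCGG was found in 17 windows, 47.2%, beside 35.6% of all and 60.9% of tested genes. The antioxidant response core TGACNNNGC was found in 4, 11.1% beside 12.4% of all and 14.2% of tested genes, in the windows of Abca8b, Abcc10, Abcc2 and Abcc4. The AP-1 site TGANTCA, which can share bases with that core, was found in 0 windows, beside 7.91% of all and 5.54% of tested genes. The E-box CACGTG was found in 6, 16.7% beside 7.09% of all and 9.42% of tested genes, among them those of Abca1 and Abcc4. CCAAT was found in 12, 33.3% beside 37.8% of all and 38.3% of tested genes. Such matches describe letters in these windows and name no bound factor.

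**Figure D4:**
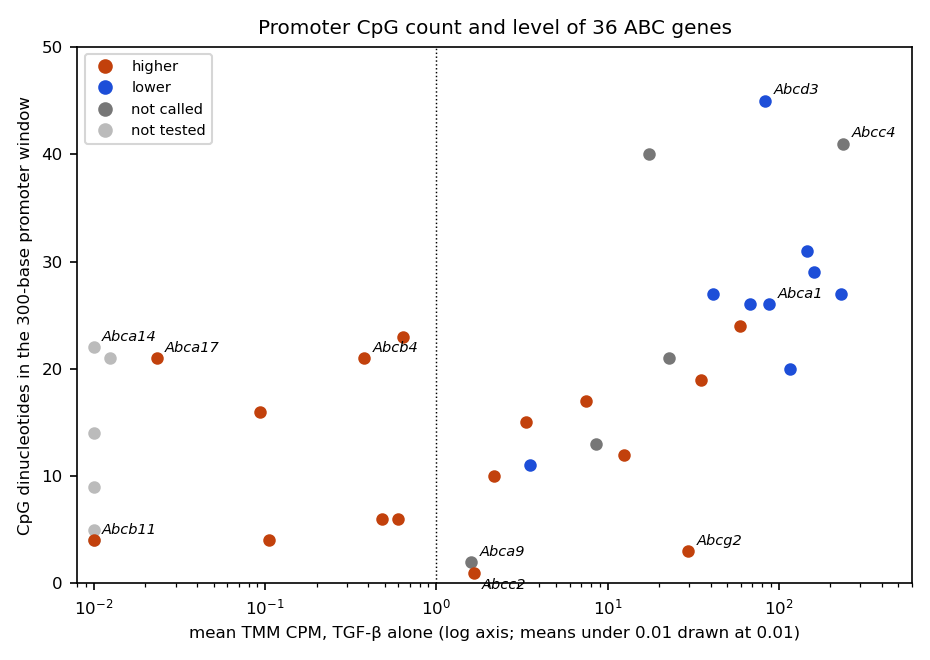
CpG dinucleotides in the 300-base promoter window (vertical) of 36 ABC genes and their mean TMM CPM with TGF-β alone (horizontal, log axis, means under 0.01 drawn at 0.01), coloured by the edgeR call. The dotted line marks 1 CPM. Left of it no window has over 23 CpG, and right of it Abcg2, Abca9 and Abcc2 lie lowest, with 3, 2 and 1.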

How the data were processed

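The measured quantity was RNA abundance per gene in 8 libraries, 4 per group, made per the labels' protocols with an RNeasy extraction and a SMARTER mRNA kit. The authors deposited 1 table of whole-number read counts per gene, not normalized, per the file headers. The same table holds FPKM values, mean FPKM, a log2 ratio of the means, and p-values with FDR that the authors deposited; the last 3 were not used. The build was GRCm38 (mm10) per the submitters' processing notes, while aligner, counter, strand setting and annotation release were not given in those sources. No column of another sample was present.

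Counts were fitted with the quasi-likelihood test of edgeR 4.0.16 in R 4.3.3 over all genes that passed filterByExpr (minimum count 10), with TMM scaling, 1 factor for the 2 groups, Benjamini-Hochberg adjustment over 14608 genes and a call at adjusted p under 0.05. The SE is the log2 fold change divided by the square root of F, and intervals are 1.96 SE to each side. Levels are TMM-scaled CPM. A count of 3 corresponded to 0.128 to 0.200 CPM per library and, summed over a group, to 0.0430 CPM with chaetocin and 0.0357 CPM with TGF-β alone. Depth limits members near these values. The test was checked on simulated counts.

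The members, roles and related lists were chosen with earlier results of these data known. Values per library were given for called members with a fold of at least 2 and at least 1 CPM on average, and for the 5 members of highest mean FPKM; up to 2 further examples a role and 3 genes of a related list were named. Abcb1b and Abcc1, given with means, and genes named beyond the rule were chosen after their values were seen. Alternatives were DESeq2 1.42.0 (its size factors and its test), total-count scaling, other filters, limma 3.58.1 on counts (voom) and on log2(FPKM + 1) or log2(FPKM + 0.1), a replicate block, a test against a fold of 1.5 and each library left out. The split at 1 CPM with TGF-β alone and the promoter windows were added after the values were seen. Some genes that enter the counts are not reported by name here. Replicate numbers did not pair the libraries.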

Additional observations from a re-analysis of the deposited data

Results flagged for a closer look

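Of 88 sets of 4 libraries compared (44 members in 2 groups), 1 held a library far from the other 3. Abcg3 was at 3.20 CPM in replicate 2 of the TGF-β libraries, where the other 3 lay between 3.61 and 3.63 CPM. Chance marks about 1 set in 20, and the gap to the chaetocin libraries, at most 1.87 CPM, is larger.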

How the results depend on the processing

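Of the 21 members called with a fold of at least 2, none changed direction under the 19 alternatives that could test them, and 20 kept their call throughout. Abcb9 lost it against a fold of 1.5 (edgeR adjusted p = 0.0559). However, 13 of the 21 passed the filter only through the chaetocin libraries and Abcg3 only through the TGF-β libraries. That favours the direction they had, so their kept direction says little. With each library left out in turn, 24 to 25 members were called higher, 12 to 14 lower, 18 to 19 higher and 3 lower with a fold of at least 2, and the groups did not overlap in 35 to 38. Without chaetocin replicate 1, the deepest of its group, 24 were higher and 12 lower. Without chaetocin replicate 4, Abcb10 (adjusted p = 0.019) and Abcd4 (adjusted p = 0.0302) were also called lower, and without TGF-β replicate 2 Abcb10 was (adjusted p = 0.0195).

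Members called lower numbered 6 with total-count scaling, 6 in each of the 3 limma fits on FPKM and 3 against a fold of 1.5. Members called higher numbered 13 with limma on log2(FPKM + 1) and log2(FPKM + 0.1), where 30 members passed the filter. Those higher with a fold of at least 2 numbered 5 with a pseudocount of 1, 7 with 0.1, and 6 with a pseudocount of 1 and no filter; a pseudocount shrinks the folds of low genes. Abce1 changed sign to 0.0352 with total-count scaling, and to 0.0330, 0.0335 and 0.0330 with limma on FPKM (pseudocount 1, 0.1, and 1 with no filter). Abcc4 changed sign to -0.0329 with no filter, and its log2 fold change was -0.0131 to 0.0125 with a library left out. Abcc8 then ranged from -0.13 to 0.26 and Abca9 from -0.0651 to 0.15. None of these sign changes was a call in the new direction.

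With the replicate block 24 members were higher and 13 lower, the added one being Abcb10 (adjusted p = 0.0497). The correlation of deviations between libraries of the same number was -0.02 to 0.04, so the numbers name the libraries only, and 2 of 4 TGF-β libraries correlated best with their own number.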
